A study of Oryctolagus cuniculus with 16 samples.

Results

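The genes examined were those of the ion channels that set the excitability of the vessel wall. They were taken from the count table by symbol: the potassium channel genes (KCN), the voltage-gated calcium channel subunits (CACNA, CACNB and CACNG), the TRPC, TRPM and TRPV cation channels, the ryanodine receptors RYR1 to RYR3 and the inositol trisphosphate (IP3) receptors ITPR1 to ITPR3, the sodium channels (SCN), PIEZO, the chloride channels and transporters (CLCN), the anoctamins (ANO), and the ATP-sensitive potassium (KATP) channel subunits ABCC8 and ABCC9. Of the 154 symbols that matched, 119 had a count in at least 1 library, out of 11925 symbols with a count, and the other 35, ABCC8 among them, had none. Of the 119, TRPC4AP (a protein that binds TRPC4) and KCNRG (a regulator of potassium channels) fit the naming rule without being channel subunits.

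The study compared arteries under raised and normal flow in female New Zealand white rabbits. Rabbits 5 and 6 had both common carotid arteries tied off (ligated), which raises flow in the basilar artery, and rabbits 3 and 4 had sham surgery. All were killed 24 h after surgery, and strips of the intima and of the remaining media were cut by laser microdissection from the basilar artery (BA) and from its terminus (BT), where it divides. This gave 16 libraries from 4 rabbits in 8 groups of 2, each library pooled from several sections of 1 rabbit. Because 2 animals stood behind each group, p-values measured the spread between very few rabbits.

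Intimal strips held smooth muscle as well as endothelium. The summed level of 7 vascular smooth muscle cell (VSMC) markers was 11438 to 77205 CPM (counts scaled to library size by the TMM method) in the intima and 70569 to 120912 CPM in the media, while 9 endothelial cell (EC) markers summed to 1064 to 5307 CPM in the intima and 57.4 to 964 CPM in the media. A level per library therefore mixed cell types, and fewer cells of a type and less RNA per cell cannot be told apart in such bulk samples. Total counts on named genes were 5211886 to 17686105 in the intima and 2154863 to 11219236 in the media.

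VSMC tone follows the membrane potential. Calcium entering through L-type voltage-gated channels and calcium released from the sarcoplasmic reticulum through ryanodine and IP3 receptors drive contraction, while opening of potassium channels hyperpolarizes the membrane and relaxes the cell. KATP channels, made of a pore (Kir6.1, KCNJ8) and a sulfonylurea receptor (SUR2, ABCC9), and large-conductance calcium-activated (BK) channels, made of KCNMA1 and its smooth muscle subunit KCNMB1, are the classical brakes, and small and intermediate conductance channels (KCNN3, KCNN4) and TRPV4 are known from the endothelium.

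Channel genes made up 978 to 2458 CPM of a library, and 44 to 90 of them had a count in a given library. A count in all 16 libraries was found for 30 of them, a mean above 1 CPM over the libraries for 58, and a mean above 10 CPM for 28, whereas 18 never exceeded 3 counts. Values below refer to one gene at a time, because transcript lengths were not used and levels of different genes were not compared. Every gene with a count had a mean above 1 CPM in the store release (6 of 6), BK (4 of 4), KATP (2 of 2) and PIEZO (1 of 1) families, and fewer did among the voltage-gated potassium alpha subunits (6 of 27), the pore-forming calcium subunits (1 of 7, CACNA1C) and the channels with two-pore domains (2 of 8).

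**Figure D1:**
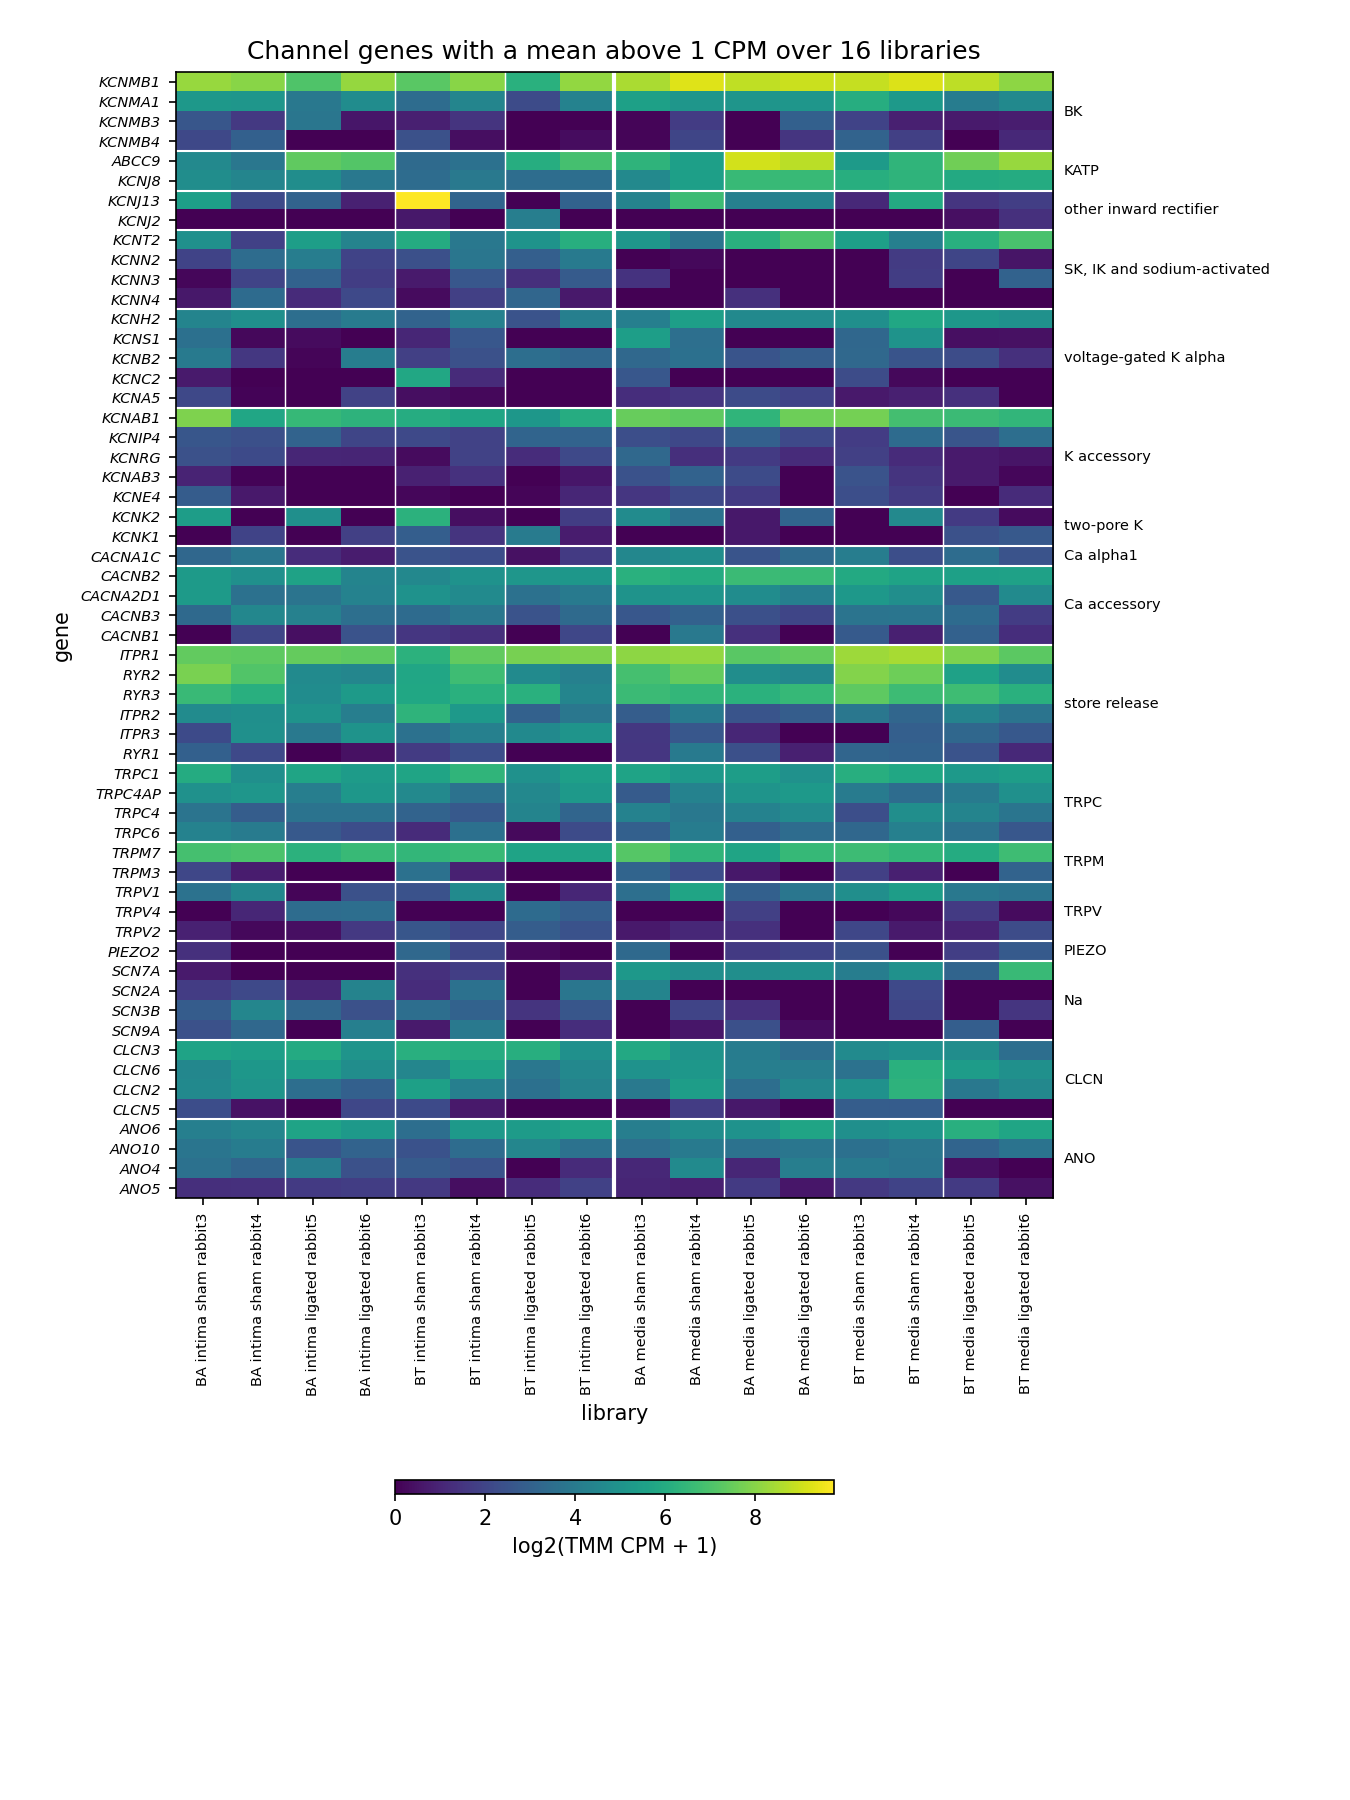
Level of 57 of the 58 channel genes with a mean above 1 CPM, as log2(TMM CPM + 1), in the 16 libraries, ordered by family and, within a family, by mean. The white lines separate groups of 2 rabbits, the thick one separates intima from media, and the single brightest cell is KCNJ13 in the BT intima of sham rabbit 3 (851 CPM).

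The first question was how ligation changed these genes in each tissue. ABCC9, the SUR2 subunit of the KATP channel, was increased in the ligated media, by 7.81-fold in the BA and 4.16-fold in the BT, and RYR2, a ryanodine receptor of the sarcoplasmic reticulum, was decreased there, by 5.93-fold and 6.07-fold. KCNS1, a modifying subunit that forms no channel by itself, was decreased in the BT media. No channel gene passed the threshold in the intima in this fit, although the values of ABCC9 and RYR2 moved in the same directions there. The paper, which also used edgeR but another expression filter, lists ABCC9 and KCNC2 among its intimal genes altered by flow. The test was edgeR's quasi-likelihood F test over all expressed genes, with an adjusted p (q-value, Benjamini-Hochberg) below 0.05 called, and a gene was tested when a group mean exceeded 1 CPM.

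In the BA media 59 channel genes were tested, of which 1 was higher and 1 lower at the threshold, beside 0.432% of all genes tested called higher and 0.375% called lower. In the BT media 63 were tested, of which 1 was higher and 2 lower, beside 1.16% and 1.18% of all genes. None of 60 in the BA intima and none of 66 in the BT intima were called, beside 0% of all genes in either comparison. At an unadjusted p below 0.05 the edgeR fit gave 1 higher and 4 lower channel genes in the BA intima, beside 2.52% and 3.43% of all genes, and 2 higher and 8 lower in the BT intima, beside 4.29% and 7.35%. For the media these were 3 higher and 5 lower in the BA, beside 6.62% and 6.98%, and 3 higher and 8 lower in the BT, beside 7.96% and 7.99%. The comparisons of the BA and the BT, and of intima and media, rested on the same 4 rabbits and are not separate experiments.

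The KATP genes are neighbours on the same chromosome in the RefSeq annotation of the rabbit, KCNJ8 lying next to ABCC9, and they did not move together throughout. In the BA media ABCC9 stood at 78.7 and 43.7 CPM in sham rabbits 3 and 4 and at 532 and 419 CPM in ligated rabbits 5 and 6, a log2 change of 2.96 (SE 0.41, edgeR q = 0.0219). In the BT media the sham values were 38.3 and 81.1 CPM and the ligated values 197 and 299 CPM (2.06, SE 0.43, edgeR q = 0.0327). All 4 ligated medial libraries thus lay above all 4 sham ones.

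The intima gave the same order of values for ABCC9 at lower levels. In the BA intima it was 22.9 and 13.4 CPM in sham and 162 and 141 CPM in ligated rabbits, a log2 change of 3.06 (SE 0.56), which did not pass (edgeR q = 0.232). In the BT intima it was 9.27 and 11.3 CPM in sham and 65.8 and 116 CPM in ligated rabbits (3.15, SE 0.55, edgeR q = 0.247). The sham and ligated libraries again did not overlap. Among the 60 channel genes expressed in both layers, ABCC9 was the 1 gene whose 4 ligated libraries exceeded the 4 sham libraries in both layers, beside 2.34% of all genes. ABCC9 made up 0.446% to 4.02% of the channel CPM of a sham library and 6.73% to 26.2% of that of a ligated library.

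KCNJ8, the pore of the same channel, followed this pattern in the BA media, where it stood at 23.1 and 43.8 CPM in sham and 94.4 and 93.3 CPM in ligated rabbits, a log2 difference of 1.51 (SE 0.48) that did not pass (edgeR q = 0.226). In the BT media its values were 67.1 and 80.3 CPM in sham and 58.6 and 63.3 CPM in ligated rabbits (−0.26, SE 0.42, edgeR q = 0.809). The ligated BA media thus lay above its sham group and the ligated BT media below. The ligation change of KCNJ8 in the BT minus that in the BA, fitted with rabbit as a block, was −1.84 on the log2 scale (SE 0.57), with an unadjusted p of 0.00366 and an edgeR q of 0.180. In the intima KCNJ8 ranged from 9.74 to 26.7 CPM in sham and from 10.3 to 26.0 CPM in ligated libraries, which overlapped.

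Among the store release channels, RYR2 gave the clearest difference. In the BA media it was 115 and 171 CPM in sham and 26.4 and 21.5 CPM in ligated rabbits (log2 change −2.57, SE 0.45, edgeR q = 0.0482). The BT media gave 245 and 192 CPM in sham and 46.1 and 25.8 CPM in ligated rabbits (−2.60, SE 0.42, edgeR q = 0.00844). Each ligated library stood below each sham library of its layer. In the BA intima RYR2 was 220 and 135 CPM against 24.2 and 21.2 CPM (−2.97, SE 0.54, edgeR q = 0.232), and in the BT intima 52.8 and 104 CPM against 24.4 and 17.8 CPM (−1.89, SE 0.56, edgeR q = 0.318). RYR2 was the 1 channel gene of the 60 expressed in both layers whose ligated libraries lay below the sham libraries in both, beside 1.65% of all genes.

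The other ryanodine and IP3 receptors did not pass in any tissue. RYR3 differed by −1.36 (SE 0.56) on the log2 scale in the BA intima (edgeR q = 0.807) and by −0.16 (SE 0.40) in the BA media (edgeR q = 0.895). RYR1, the skeletal muscle form, was low, at 0 to 15.2 CPM. ITPR1, the main IP3 receptor of smooth muscle, stood in the media at 268 and 282 CPM in the sham BA and 316 and 354 CPM in the sham BT, and at 150 and 166 CPM in the ligated BA and 222 and 157 CPM in the ligated BT. The medial groups did not overlap, yet the log2 differences of −0.78 (SE 0.32, edgeR q = 0.345) and −0.81 (SE 0.33, edgeR q = 0.243) did not pass.

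In the intima ITPR1 was nearly level in the BA, at 169 and 157 CPM in sham and 171 and 157 CPM in ligated rabbits, and in the BT it was 75.4 and 166 CPM in sham and 214 and 228 CPM in ligated rabbits. The difference of its change with ligation between media and intima was −1.23 on the log2 scale (SE 0.34), with the smallest unadjusted p of the 70 channel genes in that comparison (0.00979) and an edgeR q of 1. ITPR2 differed by −2.48 (SE 0.67) in the BT intima, from 78.5 and 37.2 CPM in sham to 7.09 and 13.7 CPM in ligated rabbits, and did not pass (edgeR q = 0.284).

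**Figure D2:**
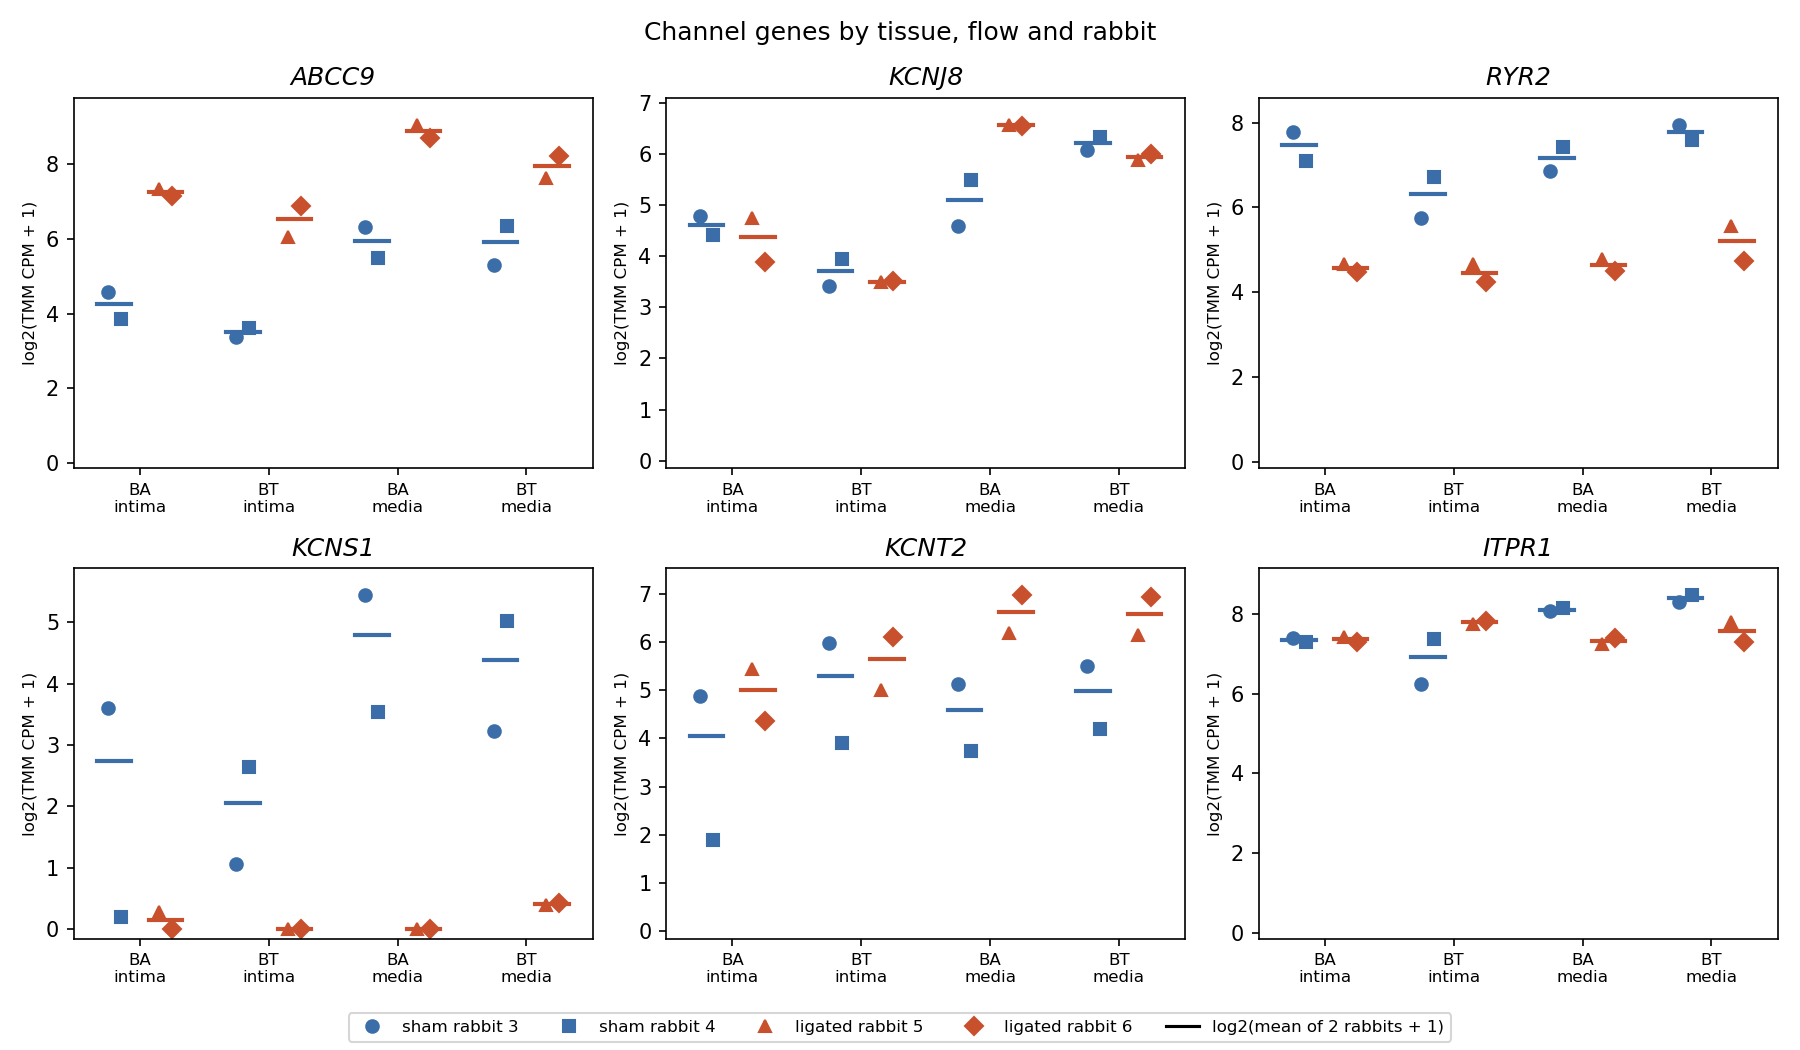
Level of 6 channel genes as log2(TMM CPM + 1) in each tissue, with 1 point per rabbit (blue, sham; red, ligated) and a line at the group mean. ABCC9 is higher and RYR2 lower in the ligated rabbits of all 4 tissues, KCNJ8 is higher in the ligated BA media but not in the BT media, and KCNS1 is at or near 0 in all ligated libraries.

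KCNS1 assembles with other voltage-gated potassium subunits and alters their gating. In the BT media it had 29 and 194 counts in sham and 1 and 3 counts in ligated libraries, or 8.42 and 31.3 CPM against 0.312 and 0.351 CPM, a log2 change of −5.79 (SE 1.26, edgeR q = 0.0347). In the BA media it had 451 and 65 counts in sham rabbits and 0 in both ligated rabbits, which was at least 22.4-fold lower when 0 is read as up to 3 counts per library, and did not pass (edgeR q = 0.0648). In the intima it ranged from 0.149 to 11.2 CPM in sham and from 0 to 0.213 CPM in ligated libraries, and these overlapped. In each location of the media, 1 sham library held most of the KCNS1 counts.

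Of the other voltage-gated potassium genes, KCNA5, a delayed rectifier of VSMCs, did not exceed 3.69 CPM in any library. KCNC2 was 55.5 CPM in the BT intima of sham rabbit 3 and 1.32 CPM in that of sham rabbit 4, with 0 counts in both ligated libraries. This was at least 112-fold lower in the ligated group but rested on a single sham library, and it did not pass (edgeR q = 0.280). All 6 voltage-gated alpha subunits tested in the BT media had a log2 change below 0, of which KCNS1 alone passed.

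The BK genes gave no called change. KCNMB1 was 359 and 615 CPM in sham against 451 and 494 CPM in ligated rabbits in the BA media (log2 difference −0.02, SE 0.34, edgeR q = 0.987), where the groups overlapped. The BT media held 471 and 603 CPM against 435 and 271 CPM (−0.60, SE 0.33, edgeR q = 0.410). KCNMA1, the BK pore, stood at 65.7 and 36.9 CPM in sham and 15.9 and 23.5 CPM in ligated rabbits in the BT media (−1.36, SE 0.58, edgeR q = 0.270). KCNMB4 had no count in either ligated BA intima library and 3.27 and 6.88 CPM in the sham ones, which was at least 12.2-fold lower and did not pass (edgeR q = 0.757).

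KCNT2, a sodium-activated potassium channel, gave higher values with ligation in the media without passing. It was 33.8 and 12.3 CPM in sham and 71.7 and 124 CPM in ligated rabbits in the BA media (2.10, SE 0.61, edgeR q = 0.188), and 44.4 and 17.3 CPM against 69.5 and 121 CPM in the BT media (1.65, SE 0.54, edgeR q = 0.153). The 4 ligated medial libraries lay above the 4 sham ones. ABCC9 and KCNT2 were the 2 channel genes of 71 with this order in the media, beside 6.82% of all genes. KCNN3 was at most 7.36 CPM and its groups overlapped in every tissue.

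Of the calcium channel genes, none passed with ligation. CACNA1C, the pore of the L-type channel, stood in the BA media at 21.9 and 26.0 CPM in sham and 4.75 and 9.44 CPM in ligated rabbits (−1.72, SE 0.80, edgeR q = 0.395), and in the BA intima at 8.57 and 13.1 CPM against 1.38 and 0.684 CPM (−3.35, SE 1.37, edgeR q = 0.807). Its values were thus lower in ligated BA tissue, but in the BT media the sham pair of 16.3 and 4.03 CPM enclosed the ligated pair of 9.97 and 4.67 CPM. The beta subunit gene CACNB2, which carries the pore to the membrane, differed by 0.55 (SE 0.40, edgeR q = 0.567) in the BA media and −0.22 (SE 0.47, edgeR q = 0.860) in the BT media. CACNA2D1 was −0.56 (SE 0.60) and −1.04 (SE 0.75) and CACNB3 −0.74 (SE 1.30) and −1.09 (SE 1.03) there, none past the threshold.

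TRPV4 is a calcium-permeable channel of ECs that responds to shear stress and swelling. In the intima it had no count in 3 of the 4 sham libraries and 1.05 CPM in the BA of sham rabbit 4, against 9.80 and 10.4 CPM in the ligated BA and 9.50 and 6.67 CPM in the ligated BT. The ligated libraries all lay above the sham ones, yet neither difference passed. The BT intima was at least 25.2-fold higher than its sham group (edgeR q = 0.280), and the BA intima differed by 4.28 on the log2 scale (SE 1.96, edgeR q = 0.842). In the media TRPV4 was 0 to 2.64 CPM. ANO6, ABCC9 and TRPV4 were the 3 channel genes of 71 with all ligated intimal libraries above all sham ones, beside 5.54% of all genes.

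EC markers of the intima gave values in both directions with ligation, none past the threshold (the smallest edgeR q being 0.265, for TEK in the BT). In the BA 4 of 8 tested had a log2 change above 0 and 4 below, from 4.53 (SE 0.98) for EMCN to −0.81 (SE 0.62) for VWF. In the BT 6 of 9 lay above 0 and 3 below, from 2.90 (SE 1.02) for EMCN to −5.31 (SE 2.01) for KDR, and TEK was at 1.78 (SE 0.40) and VWF at −1.73 (SE 0.88). The summed EC list was 1064 to 5307 CPM in the sham and 2034 to 3227 CPM in the ligated intima. Their part in the TRPV4 values was not tested.

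The remaining TRP genes gave no call. TRPM7, a channel joined to a kinase, was 47.3 to 125 CPM in the intima and differed by −0.52 (SE 0.47, edgeR q = 0.916) in the BA and −0.88 (SE 0.43, edgeR q = 0.479) in the BT. TRPC1 ranged from 27.8 to 82.3 CPM over all libraries, with log2 differences from −0.85 (SE 0.51, BT intima) to −0.01 (SE 0.62, BA intima). TRPC6, a receptor-operated channel linked to myogenic tone, was 18.7 and 15.7 CPM in the sham BA intima and 5.64 and 3.94 CPM in the ligated BA intima (−1.84, SE 0.96, edgeR q = 0.861). TRPV1 was 11.9 and 21.4 CPM in the sham BA intima, and 0.106 and 4.28 CPM in the ligated BA intima (−2.95, SE 1.50, edgeR q = 0.861).

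PIEZO1 was not among the counted symbols. The mechanosensitive channel PIEZO2 did not exceed 9.05 CPM and had counts in 10 libraries. In the BT intima it was 8.73 and 3.22 CPM in sham and 0.173 and 0 CPM in ligated rabbits. The ratio of summed counts, sham over ligated, was 82.9 (95% counting interval 22.5 to 690), and the difference did not pass (edgeR q = 0.393). In the media PIEZO2 differed by −0.85 (SE 2.08) in the BA and 0.97 (SE 1.99) in the BT on the log2 scale. Of the genes with a count, 3 of 5 in the CLCN family and 3 of 6 in the ANO family had one in all 16 libraries. CLCN3, an intracellular chloride transporter, was 58.1 and 31.4 CPM in sham and 15.8 and 10.7 CPM in ligated BA media (−1.75, SE 0.63, edgeR q = 0.286), a difference that did not pass. ANO6, a calcium-activated scramblase and channel, was 17.4 and 21.0 CPM in sham and 48.5 and 37.6 CPM in ligated BA intima (1.17, SE 0.62, edgeR q = 0.861), and 28.2 and 31.5 CPM against 69.8 and 52.1 CPM in the BT media (1.04, SE 0.49, edgeR q = 0.333). The log2 change of ANO6 lay above 0 in all 4 tissues. ANO4 was 14.8 and 12.9 CPM in the sham BT media, with 1 count in all in the ligated pair, a ratio of summed counts of 160 (95% counting interval 28.2 to 6362) that did not pass (edgeR q = 0.0604).

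**Figure D3:**
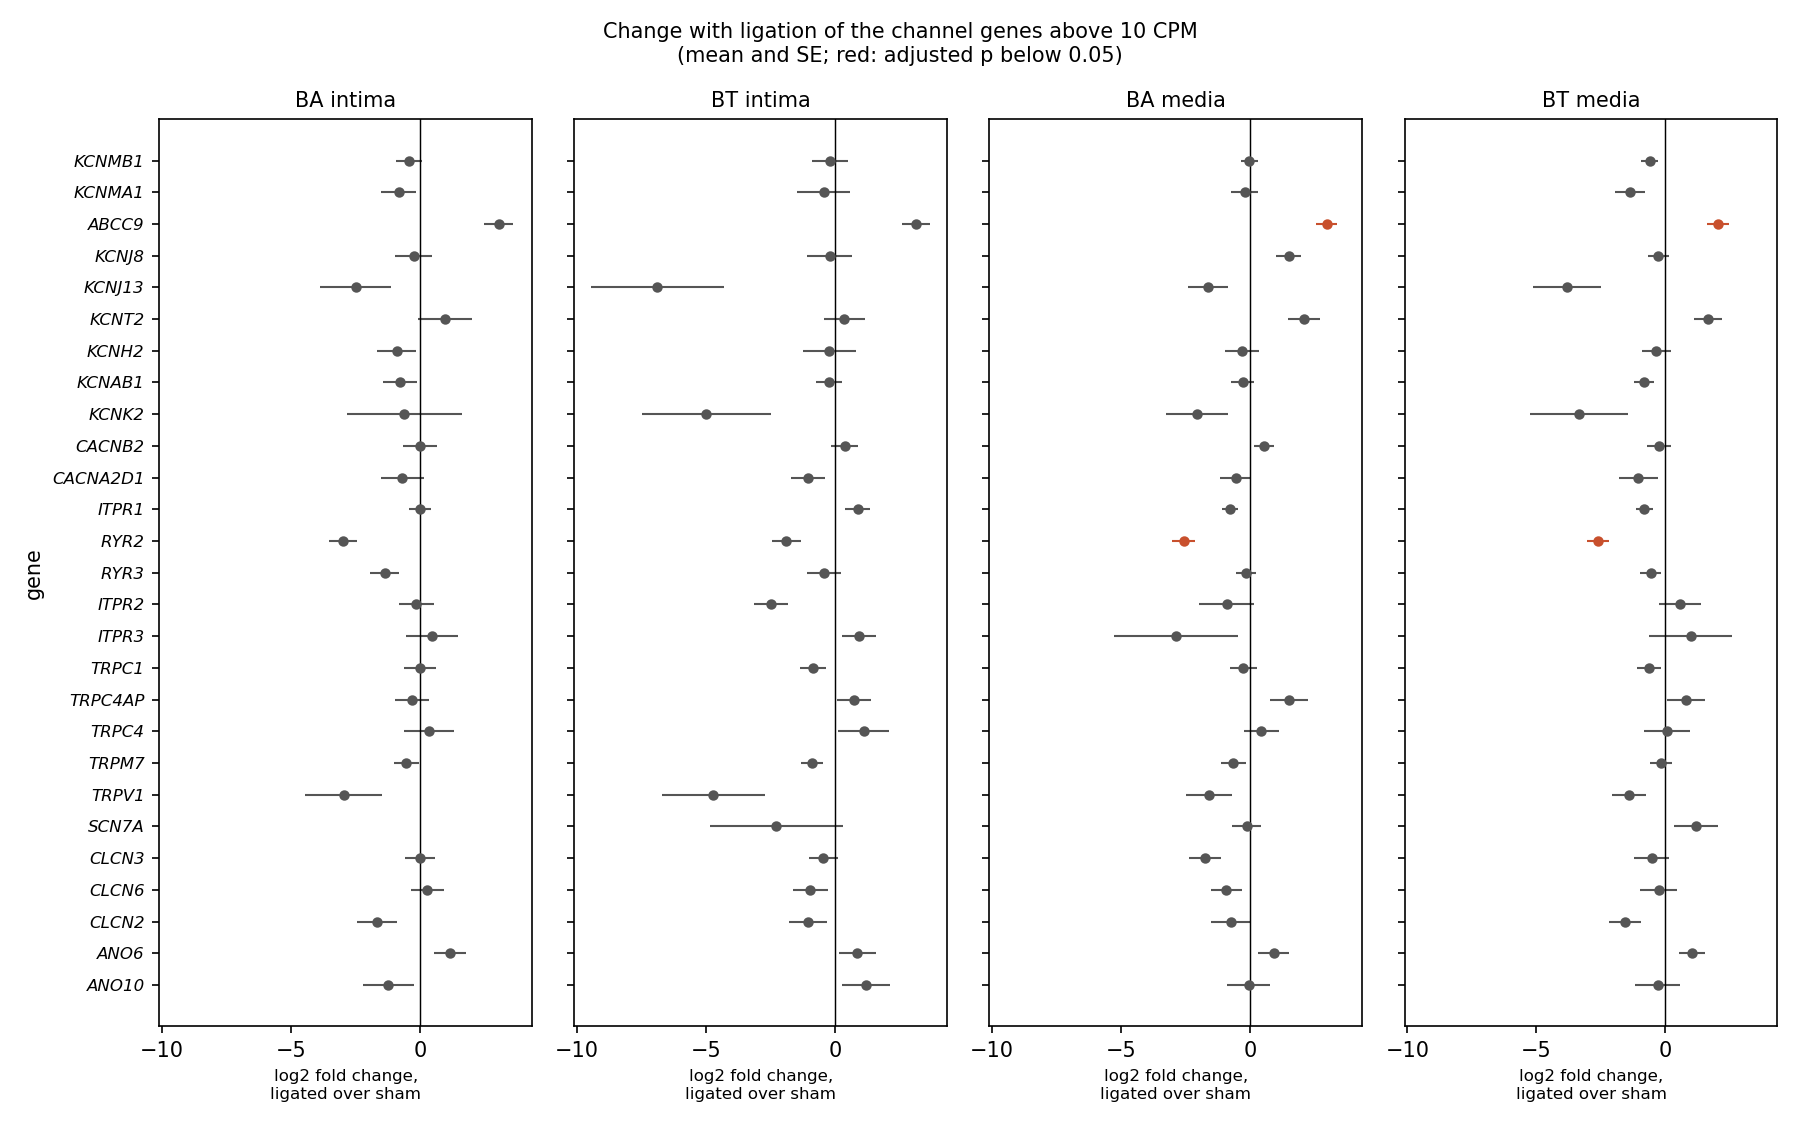
Log2 fold change of ligated over sham, with SE, in each tissue for 27 of the 28 channel genes with a mean above 10 CPM, fitted in edgeR from 2 rabbits per group, with all panels on 1 scale (SCN7A was too low to test in the BA intima). Red marks an adjusted p below 0.05: ABCC9 (2.96 and 2.06) and RYR2 (−2.57 and −2.60) in the BA and BT media.

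Among channel genes more values were below 0 than above with ligation. The median log2 change of the channel genes tested was −0.38 and −0.66 in the intima of the BA and BT, and −0.74 and −0.65 in their media, beside −0.10, −0.13, −0.15 and 0.03 over all genes tested. Low genes carry unstable fold changes. Among genes with a mean above 10 CPM, 70.4%, 67.9%, 75.0% and 71.4% of channel genes lay below 0 in these tissues, beside 51.1%, 50.4%, 50.2% and 50.6% of all genes. The median log2 change of these channel genes was −0.42, −0.33, −0.31 and −0.44, beside −0.02, −0.007, −0.005 and −0.02 of all such genes. At or below 10 CPM the shares below 0 were 60.6%, 63.2%, 71.0% and 65.7% of channel genes, beside 59.4%, 61.8%, 64.1% and 46.6% of all genes. The part of low counts in these shares was not tested. Sham and ligated pairs that did not overlap, with ligation lower, were seen for 16 of 60, 23 of 66, 16 of 59 and 26 of 63 channel genes, beside 20.0%, 25.5%, 25.6% and 22.9% of all genes. In the other direction these were 4, 10, 8 and 6 genes, beside 15.4%, 20.4%, 21.3% and 25.7%. Over both locations, all 4 ligated libraries lay below all 4 sham libraries for 6 of 71 channel genes in the intima (RYR1, RYR2, CACNA1C, KCNMB4, TRPM3 and TRPV1), beside 6.09% of all genes, and for 4 of 71 in the media (RYR2, ITPR1, KCNS1 and CACNA2D1), beside 7.06%.

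Markers of other cell types moved with ligation too. The summed level of 4 pericyte markers was 521 to 1299 CPM in the sham media and 279 to 565 CPM in the ligated media, with RGS5 lower by 3.43 (SE 0.49) on the log2 scale in the BT media (edgeR q = 0.00459). The others did not pass there: NOTCH3 was at −1.38 (SE 0.45), PDGFRB at −0.11 (SE 0.32) and CSPG4 at 3.33 (SE 1.13), and none of the 4 passed in the BA media. The list held neither KCNJ8 nor ABCC9. The 7 leptomeningeal and fibroblast markers summed to 5622 to 12610 CPM in the sham media and 3305 to 4906 CPM in the ligated media, with COL1A2 lower by 1.50 (SE 0.26) and DCN by 1.72 (SE 0.30) in the BA media (edgeR q = 0.0482 for each). None of the 7 passed in the BT media, where 6 lay below 0 and 1 above, COL1A2 at −0.73 (SE 0.29) and DCN at 0.008 (SE 0.35). The ligation change of DCN in the BT minus that in the BA was 1.61 (SE 0.35, edgeR q = 0.0256). The summed VSMC list overlapped, at 77772 to 105505 CPM in the sham and 70569 to 120912 CPM in the ligated media, but its members did not move alike. MYH11, the smooth muscle myosin heavy chain, fell by 1.70 (SE 0.33, edgeR q = 0.0221) and LMOD1, an actin nucleator, fell by 1.50 (SE 0.34, edgeR q = 0.0438) on the log2 scale in the BT media, where SYNPO2 was at −2.10 (SE 0.60, edgeR q = 0.101) and DES at 1.04 (SE 0.41, edgeR q = 0.229). No VSMC marker passed in the BA media. The 7 neuronal markers did not exceed 11.4 CPM in sum. The part of these shifts in the decreased RYR2 and KCNS1 or the increased ABCC9 was not tested.

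A second question was which channels belonged to which layer. Intima and media of the same rabbit were compared after summing the counts of the BA and the BT, with rabbit as a block, which gave 64 channel genes tested. ABCC9, KCNJ8 and SCN7A were higher in the media and ITPR3 in the intima. These were 3 of 64 called lower in the intima, beside 1.59% of all genes, and 1 of 64 called higher, beside 2.57%. At an unadjusted p below 0.05 there were 13 lower and 8 higher channel genes, beside 8.52% and 10.9% of all genes.

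Both KATP genes were thus more abundant in the media. In the sums per rabbit, ABCC9 was 16.7, 12.7, 111 and 127 CPM in the intima of rabbits 3 to 6 and 67.6, 61.9, 329 and 338 CPM in the media, a log2 difference of −1.82 (SE 0.21, edgeR q = 0.00964), or 3.52-fold lower in the intima. KCNJ8 was 18.9, 18.4, 17.6 and 11.8 CPM in the intima and 33.3, 61.6, 73.6 and 73.0 CPM in the media (−1.81, SE 0.34, edgeR q = 0.0350). In these sums the media was higher in each rabbit for both genes. Before summing, KCNJ8 was 26.7 CPM in the intima and 23.1 CPM in the media of the BA of sham rabbit 3, and higher in the media in every other pair. SCN7A, a sodium channel relative that senses sodium level, was 0 to 1.04 CPM in the intima and 15.4 to 75.3 CPM in the media of the 4 rabbits (−6.07, SE 0.79, edgeR q = 0.0112).

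ITPR3, an IP3 receptor found in non-excitable cells, went the other way. It was 7.15, 25.2, 20.0 and 32.2 CPM in the intima and 1.47, 5.95, 5.81 and 3.74 CPM in the media of rabbits 3 to 6 (2.31, SE 0.43, edgeR q = 0.0351). KCNN2 was 3.47, 11.0, 11.3 and 11.5 CPM in the intima and 0, 1.21, 2.00 and 0.325 CPM in the media and did not pass (4.13, SE 1.02, edgeR q = 0.0737). KCNN4, the intermediate conductance channel of ECs, had counts in all 8 intimal libraries, between 3 and 129, and in 1 of 8 medial libraries, with 3 counts. Its difference did not pass (edgeR q = 0.118), and the intimal values spread from 0.203 to 9.64 CPM.

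Some genes known from VSMCs had higher values in the media without passing. These were KCNMB1 (−1.07, SE 0.31, edgeR q = 0.113), KCNMA1 (−0.76, SE 0.31, edgeR q = 0.238), CACNA1C (−1.79, SE 0.61, edgeR q = 0.162), CACNB2 (−0.95, SE 0.21, edgeR q = 0.0564) and RYR3 (−0.83, SE 0.24, edgeR q = 0.120). Other such genes are not in this list. Over single libraries ITPR1 was 75.4 to 228 CPM in the intima and 150 to 354 CPM in the media. RYR2 was 17.8 to 220 and 21.5 to 245 CPM, and TRPC6 0.173 to 18.7 and 5.26 to 17.7 CPM, so the layers overlapped. CLCN3 had higher values in the intima (1.01, SE 0.30, edgeR q = 0.120). The share of VSMC marker counts in the intima, given above, bears on each of these differences, and its part was not tested.

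**Figure D4:**
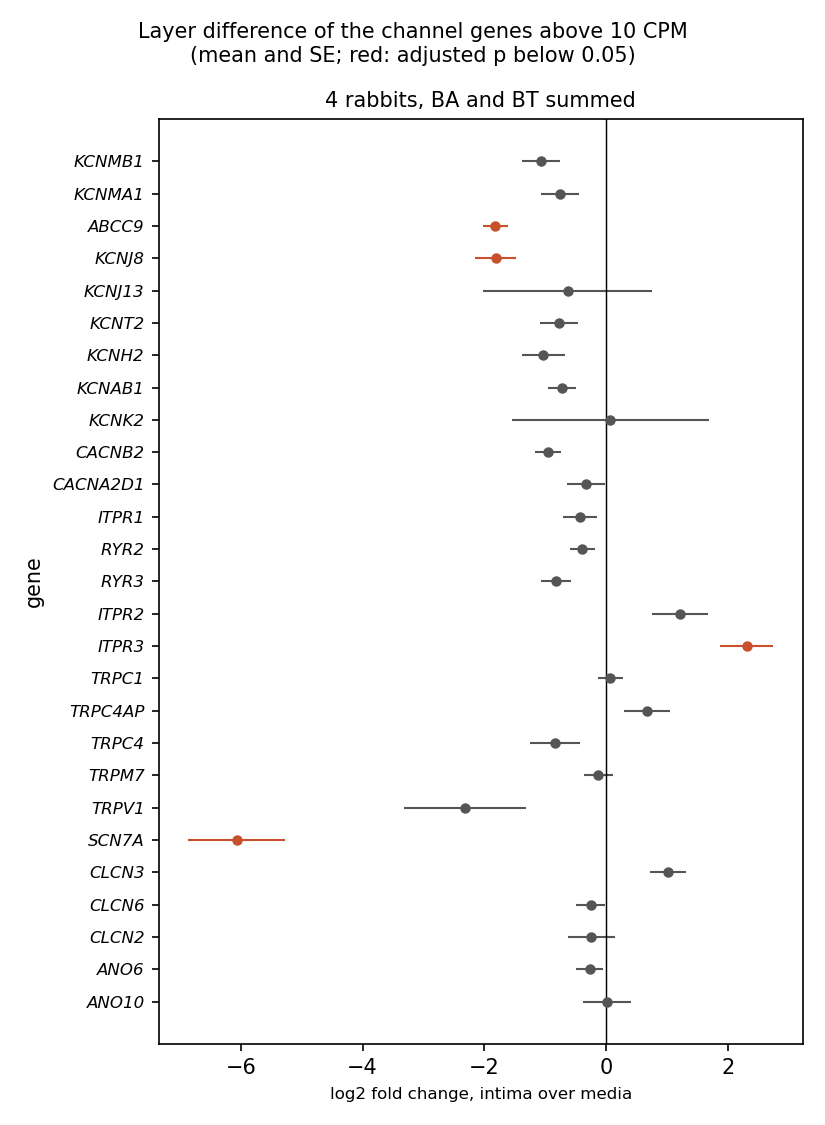
Log2 fold change of intima over media, with SE, for 27 of the 28 channel genes with a mean above 10 CPM, fitted in edgeR on counts summed per rabbit and layer with rabbit as a block (4 rabbits). Red marks an adjusted p below 0.05: ABCC9 (−1.82), KCNJ8 (−1.81) and SCN7A (−6.07) lie below 0 and ITPR3 (2.31) above.

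No channel gene changed its response to ligation between the layers at the threshold, of 70 tested in the edgeR fit, where 0% of all genes were called. At an unadjusted p below 0.05 the fit gave 3 higher and 2 lower channel genes, beside 2.00% and 1.40% of all genes. Ranked by unadjusted p, the first were ITPR1, given above, SCN2A (−11.10, SE 3.63, edgeR q = 1) and KCNK1 (8.55, SE 2.96, edgeR q = 1). Both of the latter had no count in some groups.

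The third question was whether the BT differed from the BA. None of 64 channel genes in the intima and none of 57 in the media were called, beside 0.0110% and 0.0227% of all genes, with rabbit as a block in the edgeR fit. At an unadjusted p below 0.05 there were 8 of 64 in the intima and 2 of 57 in the media, beside 3.83% and 5.28% of all genes. Ranked by unadjusted p, the first in the intima were KCNC2 (6.24, SE 1.47, edgeR q = 1), which rested on sham rabbit 3, KCNMA1 (−1.21, SE 0.47, edgeR q = 1) and TRPM7 (−0.61, SE 0.24, edgeR q = 1). In the media they were KCNJ13, an inward rectifier of weak rectification, which differed by −2.65 (SE 0.58, edgeR q = 0.255), CACNB2 (−0.69, SE 0.30, edgeR q = 0.904) and RYR2 (0.57, SE 0.27, edgeR q = 0.955). KCNJ13 stood at 19.2, 101, 17.9 and 20.2 CPM in the BA media and at 1.16, 61.0, 1.87 and 2.45 CPM in the BT media of rabbits 3 to 6. It was lower in the BT of each rabbit.

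In the intima KCNJ13 was 851 CPM in the BT of sham rabbit 3 and 0 to 44.7 CPM in the other 7 intimal libraries. KCNK2, a mechanically gated channel with two-pore domains, was likewise highest there, at 75.0 CPM, as was KCNC2. Among intimal libraries PIEZO2 (8.73 CPM) and ITPR2 (78.5 CPM) were also highest in the BT of sham rabbit 3. That library also had the highest intimal sums of the macrophage list (1095 CPM) and of the leptomeningeal and fibroblast list (5067 CPM) and the lowest of the EC list (1064 CPM). The part of these cells in the channel values was not tested.

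**Figure D5:**
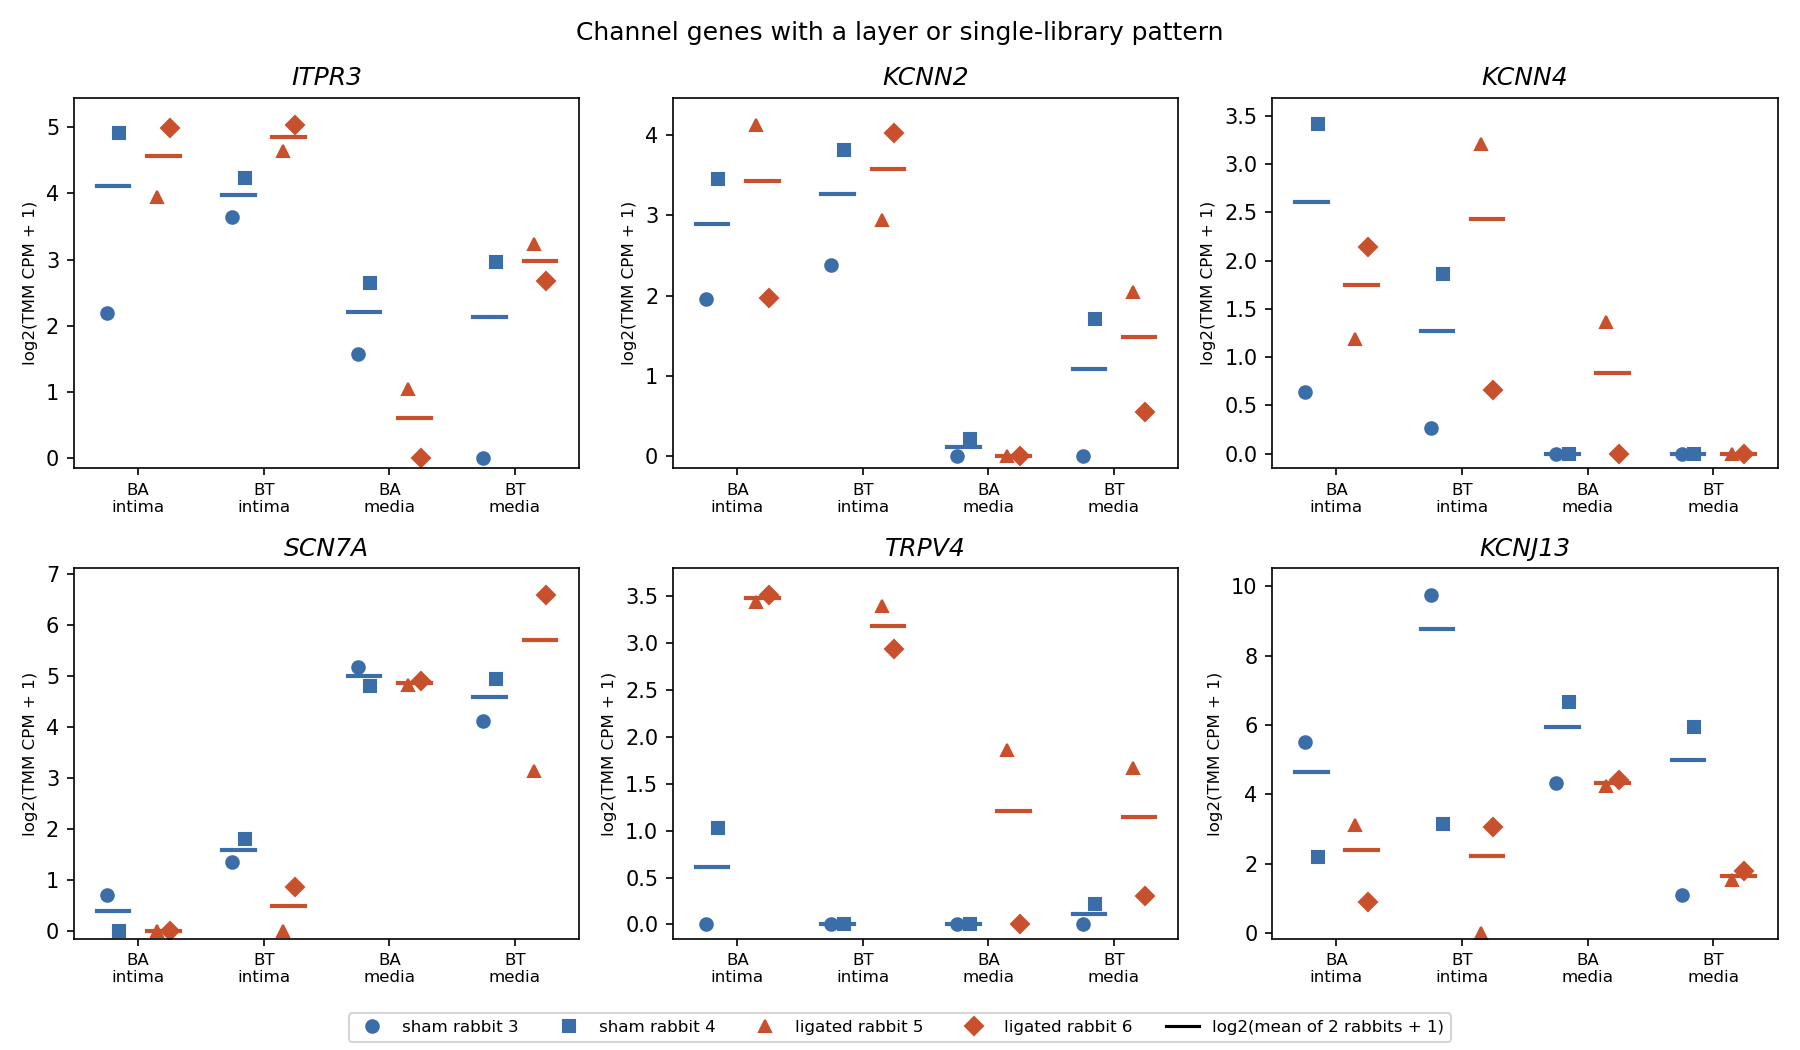
Level of 6 channel genes as log2(TMM CPM + 1) in each tissue, with 1 point per rabbit (blue, sham; red, ligated) and a line at the group mean. ITPR3, KCNN2 and KCNN4 are mostly intimal and SCN7A is medial, TRPV4 is seen in the ligated intima at 6.67 to 10.4 CPM, and KCNJ13 has 1 library at 851 CPM.

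The response to ligation gave no called difference between the 2 locations for any of 73 channel genes in the intima or 70 in the media, beside 0% and 0.502% of all genes in the edgeR fits. At an unadjusted p below 0.05, 2 channel genes passed in each layer, beside 3.44% of all genes in the intima and 9.07% in the media. By unadjusted p, the first in the media were KCNJ8, given above, ANO4 (−7.11, SE 2.61, edgeR q = 0.311) and KCNMB1 (−0.65, SE 0.35, edgeR q = 0.617). In the intima they were CACNA1D (−14.24, SE 5.45, edgeR q = 1), ITPR2 (−2.28, SE 0.96, edgeR q = 1) and KCNMB3 (−7.50, SE 3.32, edgeR q = 1). CACNA1D and KCNMB3 had groups without a count, so their sizes are not measured folds.

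Other genes of membrane excitability and calcium handling were read from a list of pumps, store-operated channels, connexins and regulators, 50 of whose 57 symbols were in the table. With ligation none was called in the BA media or in the intima of either location. Between the layers 4 of 42 were called higher in the intima, beside 2.57% of all genes, and 3 higher in the media, beside 1.59%. The gap junction gene GJA5 (2.43, SE 0.34, edgeR q = 0.0134), the store-operated channel ORAI1 (1.81, SE 0.28, edgeR q = 0.0194) and the ATP-gated channel P2RX7 (2.20, SE 0.39, edgeR q = 0.0313) were among those higher in the intima. The endothelin receptor EDNRA (−1.27, SE 0.20, edgeR q = 0.0208), the calcium-dependent kinase CAMK2D (−0.82, SE 0.14, edgeR q = 0.0298) and the store calcium buffer CASQ2 (−0.91, SE 0.16, edgeR q = 0.0298) were higher in the media. The list showed no called change with location or in the tests of difference between changes.

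The called changes rested on few rabbits. Leaving out any 1 rabbit ended both calls in the BA media, where no gene of any kind was then called, with ABCC9 between 2.60 and 3.47 and RYR2 between −2.81 and −2.27 on the log2 scale. In the BT media the edgeR q without rabbit 6 was 0.266 for ABCC9, 0.117 for RYR2 and 0.225 for KCNS1, and KCNS1 also lost its call without rabbit 4 (q = 0.262) or rabbit 5 (q = 0.120). Between the layers no call was left without rabbit 4 or without rabbit 6, and without rabbit 5 those of ITPR3 (q = 0.0700) and KCNJ8 (q = 0.105) were lost as well. The newer form of the edgeR test gave an adjusted p of 0.0642 for ABCC9 and 0.103 for RYR2 in the BA media, and of 0.0516 for ABCC9 and 0.0641 for KCNS1 in the BT media, while DESeq2 called ABCC9 in all 4 tissues, with an adjusted p of 1.42e-05 for the intima of the BA and 2.39e-05 for that of the BT. Other differences given above as not passing were also called by DESeq2. Among them were RYR2 in the BA intima (adjusted p = 2.16e-05), and TRPV4 (0.00456) and KCNC2 (8.98e-05) in the BT intima. KCNS1 in the BA media (0.000223) and KCNJ13 between the locations of the media (0.00321) were called too. So were RYR2 and ITPR2 in the BT intima, KCNT2 in the BA media and ANO4 in the BT media. Between the layers DESeq2 also called KCNMB1, CACNA1C, CACNB2, RYR3, CLCN3, KCNN2 and KCNN4. A fit over all 8 medial libraries also called KCNS1 in the BA media (edgeR q = 0.0172).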

How the data were processed

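The deposited values were raw read counts per gene symbol in 16 libraries. The authors amplified RNA with SMART-Seq v4, aligned single reads to OryCun2.0 with STAR, and counted unique reads in Ensembl exons with featureCounts 1.6.2. Counting was set to reverse-stranded reads, while the kit does not mark strand; the effect on the counts was not examined here. Without a strand mark, reads of a gene and of an antisense or overlapping gene cannot be told apart. In the RefSeq table (mOryCun1.1, used here for names and neighbours, with no coordinates) the span of KCNMB1 overlaps KCNIP1, that of KCNJ13 overlaps GIGYF2 and that of CACNA1C overlaps DCP1B. The span of RYR2 overlaps the protein-coding LOC103351031 and a small nuclear RNA gene. That of ABCC9 overlaps long noncoding RNA genes, and LOC108176990 among them also overlaps KCNJ8. These partners of RYR2, ABCC9 and KCNJ8 were not among the counted symbols. Other channel genes, among them KCNT2 and ITPR1, also overlap uncounted long noncoding RNA genes. Of the 119 channel symbols, 118 were in that table. The entry without a symbol held 13.8% to 18.7% of counts and was left out.

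Counts were tested with edgeR 4.0.16 in R 4.3.3 (TMM, older quasi-likelihood form, F test) across all genes with a mean above 1 CPM in at least 1 group. A q-value below 0.05 after Benjamini-Hochberg adjustment over all genes tested was called, and SEs are on the log2 scale. Flow was tested in 4 separate fits of 2 against 2 libraries. Layer used counts summed per rabbit and layer, and layer, location and the differences between changes used rabbit as a block, since the same rabbits gave both samples. Deviations of paired libraries from their group means correlated at −0.0305 to 0.409. Levels are CPM with TMM over all libraries. For a gene without counts the limit was taken as 3 counts per library (at 95%), and intervals and limits cover counting error only. The script was checked on simulated data.

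Named in each comparison were channel genes past the threshold (up to 6 per direction), the 3 with the smallest p where fewer passed, a fixed list of 34 vascular channels, of which 5 (KCNQ5, CACNA1H, TRPM4, PIEZO1, ANO1) were not among the counted symbols and could not be analysed, and up to 3 partner genes per direction. Others, among them KCNT2, KCNN2 and TRPV1, were named after their values were seen. Some genes that this rule names are not reported here. Genes and lists were chosen with earlier results of these data known. Alternatives were library size or RLE scaling, no expression filter, DESeq2 1.42.0 (Wald test), the newer edgeR form, a fit over a whole layer, other blocks, and leaving out each rabbit. Channel sequences were not used here.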

Additional observations from a re-analysis of the deposited data

How the results depend on the processing

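No direction of the 31 gene comparisons named by rule turned under any alternative. Over those comparisons, 266 values kept their side of the threshold, 31 lost it and 18 gained it. The number of channel genes called with ligation was 0 and 0 in the intima of the BA and BT and 2 and 3 in their media, and became 2, 3, 5 and 6 with all genes that had a count, and 2, 6, 4 and 6 with DESeq2. The newer edgeR quasi-likelihood form gave 0 for the BA media and 1 for the BT media. Leaving out 1 rabbit gave 0 to 1 for each intima, 0 to 0 for the BA media, and 0 (without rabbit 6) to 8 (without rabbit 3) for the BT media. Between layers, 4 calls became 18 with DESeq2 and 8 with the newer edgeR form, and 0 to 4 without 1 rabbit. Without the replicate block for rabbit they became 0, with no gene of any kind called, and with a block of rabbit and location over 16 libraries they became 10. Between BT and BA in the media, 0 calls became 1 with all genes and 1 with DESeq2. For the location by flow difference, leaving out 1 rabbit gave 0 to 2 calls in the intima and 0 to 1 in the media. The block changed no other count of calls, and the causes of these differences were not tested. The scaling alternatives changed no count of calls by more than 1.5 times. Counts of 0 to 3 in 18 channel genes limit what could be measured.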
